A study of Mus musculus with 12 samples.

Results

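The 9 genes described here encode subunits of Polycomb repressive complex 1 (PRC1): Ring1, Rnf2, Bmi1, Pcgf1, Pcgf2, Cbx2, Cbx7, Cbx8 and Kdm2b. They were taken by symbol from a table of 36255 genes, in which each had a row, and all 9 passed the filter on low counts. Poly(A) RNA of mouse embryos was sequenced in 11 libraries, in a series that compares expression with and without Skp1. Unaltered embryos, titled wt, gave 2 libraries at 9.0 days post coitum (dpc), 2 at 9.5 dpc and 2 more at 9.5 dpc whose titles add PI. The titles Skp1aKO and Skp1acont had 2 libraries each at 9.5 dpc, and Skp1acont with PI had 1 at that stage. The lot 2 library of Skp1acont PI was not analysed here. The labels give no strain, no Cre driver and no deleted exon, and leave "cont", "PI", "lot" and "mb" unexplained. They give the tissue as embryo beside a growth medium for ES cells and embryoid bodies. Lots 1 and 2 number the libraries of a group. Nothing says that lots are separate embryos, so p-values measure only the spread between libraries, which may be technical.

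PRC1 attaches a ubiquitin to histone H2A and compacts the chromatin of silenced developmental genes. Its catalytic core is a RING1 or RNF2 protein bound to a PCGF protein, and the PCGF protein decides which complex forms. BMI1 and PCGF2 make the canonical complexes, in which a CBX protein such as CBX2, CBX7 or CBX8 binds trimethylated histone H3. PCGF1 makes a variant complex with KDM2B, which binds unmethylated CpG dinucleotides and, as an F-box protein, also binds SKP1. In the early neural tube PRC1 is known for keeping patterning genes such as the Hox genes silent outside their domains.

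Ring1 with Rnf2, and Bmi1 with Pcgf2, are paralog pairs whose proteins fill the same place in the complex, and the balance within these pairs is the pattern that the values below describe. Their promoters are shown for that reason. They are the 250 bases before the gene start in RefSeq, build GRCm38.p6, written 5′ to 3′ on the gene's strand, with each CpG in capitals.
Ring1, chr17:34024681-34024930, minus strand: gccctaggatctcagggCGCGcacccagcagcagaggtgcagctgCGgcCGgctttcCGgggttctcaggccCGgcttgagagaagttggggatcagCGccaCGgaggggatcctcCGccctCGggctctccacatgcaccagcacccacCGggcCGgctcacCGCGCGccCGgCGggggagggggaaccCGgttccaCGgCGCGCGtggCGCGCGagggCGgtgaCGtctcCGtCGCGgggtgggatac
Rnf2, chr1:151500992-151501241, minus strand: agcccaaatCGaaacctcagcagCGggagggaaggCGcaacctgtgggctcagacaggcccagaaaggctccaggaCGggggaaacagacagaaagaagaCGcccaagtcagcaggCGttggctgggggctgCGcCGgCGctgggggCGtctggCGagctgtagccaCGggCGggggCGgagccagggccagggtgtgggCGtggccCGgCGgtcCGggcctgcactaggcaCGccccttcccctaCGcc
Bmi1, chr2:18676768-18677017, plus strand: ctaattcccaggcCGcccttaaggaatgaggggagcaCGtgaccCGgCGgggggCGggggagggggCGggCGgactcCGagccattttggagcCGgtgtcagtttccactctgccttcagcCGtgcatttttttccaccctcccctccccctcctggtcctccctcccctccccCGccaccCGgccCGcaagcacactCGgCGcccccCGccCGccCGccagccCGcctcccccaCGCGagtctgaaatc
Pcgf2, chr11:97699649-97699898, minus strand: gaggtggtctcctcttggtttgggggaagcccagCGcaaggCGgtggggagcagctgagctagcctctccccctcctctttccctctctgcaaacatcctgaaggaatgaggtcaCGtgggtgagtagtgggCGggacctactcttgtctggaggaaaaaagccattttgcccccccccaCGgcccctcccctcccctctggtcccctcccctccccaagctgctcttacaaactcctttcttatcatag

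These 250 bases held 30 CpG in Ring1, 20 in Rnf2, 21 in Bmi1 and 5 in Pcgf2. The Pcgf2 stretch lies within the longer gene of the GENCODE annotation, so it precedes only the RefSeq start. Over 300 bases, with 50 past the start, RefSeq gave 10 windows for 7 of the 9 genes, 4 of them for Kdm2b. Pcgf1 and Cbx2 had no entry. The windows held 10 to 49 CpG, with a median of 29, against a median of 7 over all 32851 promoters. CACGTG, the E-box, occurred in the windows of Bmi1, Pcgf2 and Cbx8 and in 7.15% of all promoters. The letters GCCATTTTG occurred in Bmi1 and Pcgf2 and in 0.569% of all promoters. TGACGTCA, the cyclic AMP response element, occurred in Cbx8 and in 1.79%, and GGGCGG, the GC box, in all 7 genes and in 35.7%. Both strands were searched, CACGTG and TGACGTCA share the letters ACGT, and the motifs were chosen after the promoters had been read. A match is a description of the letters only.

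The libraries with a Skp1a title, 5 in number and called Skp1a-labelled here, differed from the 6 wt libraries in more than their title. Total counts were 2320599 to 4203553 in the Skp1a-labelled and 3392251 to 11607085 in the wt libraries. Mitochondrial genes took 5.98% to 15.8% of counts against 2.44% to 4.01%. A background rate was taken from chemoreceptor genes, which are not known to be used in embryos of this age. It was 3.70 to 15.7 times that of the lowest library in the Skp1a-labelled libraries and 1 to 1.44 times in wt. Skp1acont replicate 2 stood apart: of all 11 libraries its total was lowest, and its background and mitochondrial share were highest. Its log2 values correlated with those of replicate 1 at r = 0.795 across genes, against 0.966 to 0.980 in the other groups. Where it decides a call of a subunit gene, the call without it is given too. The check of the labels was Skp1a itself, with 199 and 212 CPM (counts scaled to library depth with TMM factors) in Skp1aKO, 303 and 104 in Skp1acont, 273 in Skp1acont PI and 930 to 1337 in wt. The libraries labelled Skp1aKO thus lay between those labelled Skp1acont, and this check does not set the labels apart. A count of the gene as a whole cannot show a deletion of some exons. Markers of the midbrain and isthmus (7 genes with En1, En2 and Otx2) summed to 160.0 to 359 CPM in Skp1a-labelled and 199.9 to 360 CPM in wt libraries, with no marker at 0. Endothelial markers (4 genes) summed to 629 to 1184 against 156 to 471 CPM, erythroid markers (6 genes) to 682 to 5142 against 7653 to 21140 CPM, and mesenchyme and neural crest markers (6 genes) to 119.2 to 182 against 209 to 484 CPM. These 3 lists separate the labels in all 11 libraries. At 9.5 dpc neural progenitor markers (8 genes) summed to 375 to 1101 CPM in the Skp1a-labelled and 1124 to 3039 CPM in the wt libraries. Pluripotent cell markers (5 genes) summed to 12.1 to 19.0 against 3.38 to 7.34 CPM at that stage, while neuron, surface ectoderm and endoderm markers overlapped. The part of these differences in the results below was not tested. In bulk RNA, fewer cells of a type and less RNA per cell cannot be told apart.

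**Figure D1:**
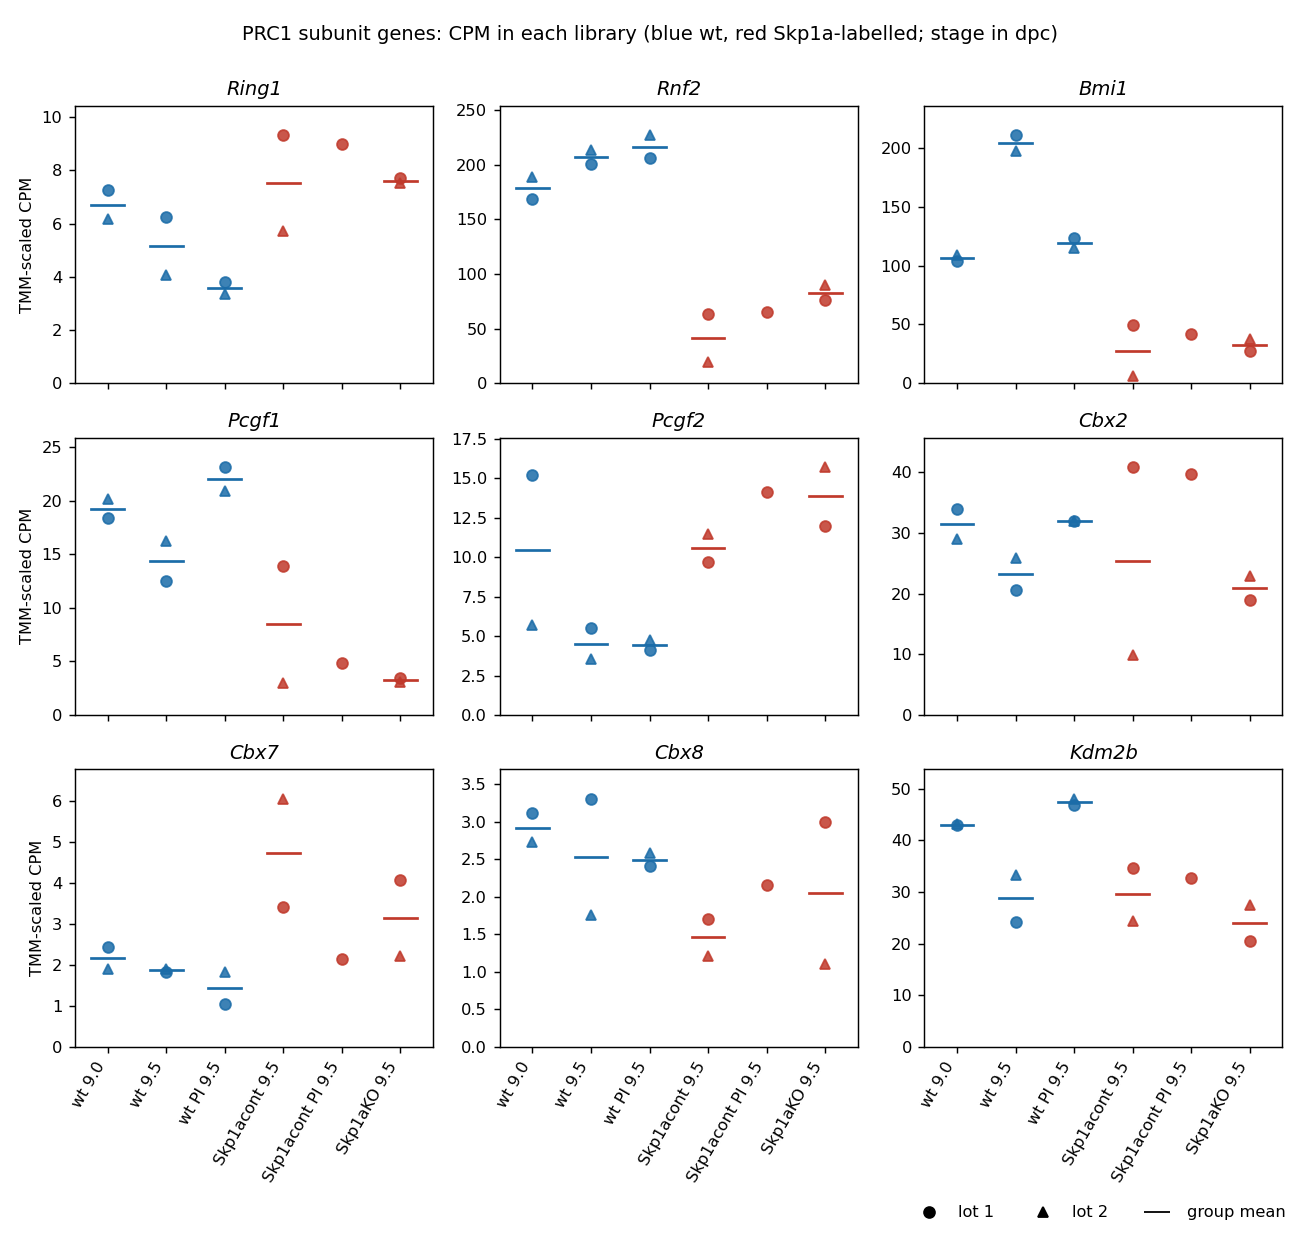
TMM-scaled CPM of each PRC1 subunit gene (y axis, starting at 0) in each library, by group (x axis, stage in dpc). Circles are lot 1, triangles lot 2, lines group means, blue wt and red Skp1a-labelled. Rnf2 and Bmi1 are lower in all 5 red libraries than in any blue one, while the colours overlap for the other 7 genes.

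Levels per kilobase of exon ordered the subunits in wt at 9.5 dpc. Bmi1 had 53.0 and 49.8 CPM per kb and Rnf2 48.6 and 51.8, so these neighbours in the order overlapped. Pcgf1 followed with 7.57 and 9.84, then Cbx2 with 4.83 and 6.10 and Kdm2b with 2.23 and 3.06 CPM per kb. The catalytic pair and the canonical pair were thus each carried mostly by a single gene. Ring1 had 1.92 and 1.25 CPM per kb and Pcgf2 1.56 and 1.00, which overlapped. Cbx8, with 0.899 and 0.478 CPM per kb, and Cbx7, with 0.283 and 0.292, were the lowest. In Skp1aKO the order was Rnf2 with 18.4 and 21.8, Bmi1 with 6.84 and 9.45, Cbx2 with 4.47 and 5.39 and Pcgf2 with 3.40 and 4.45 CPM per kb. Ring1 had 2.38 and 2.32, Kdm2b 1.89 and 2.52, and Pcgf1 2.08 and 1.87 CPM per kb. Pcgf1, the third in the wt order, thus came after Kdm2b and Ring1 in the order of Skp1aKO means, although its values overlapped those of Kdm2b. All of them were near the background rate in Skp1aKO: Pcgf1 at 1.52 and 1.43 times, Kdm2b at 1.38 and 1.92 and Ring1 at 1.74 and 1.76. The part of the background in this order was not tested. Cbx8 with 0.815 and 0.300 and Cbx7 with 0.627 and 0.340 CPM per kb overlapped each other.

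The first comparison asked how the libraries labelled Skp1aKO differ from wt at 9.5 dpc. In edgeR's quasi-likelihood test with Benjamini-Hochberg adjustment, Bmi1 and Pcgf1 were lower and Pcgf2 was higher, which is 3 of 9 genes beside 36.4% of the 18837 genes tested. The members' share is near that background. Over all genes the median log2 fold change was 0.24 with TMM scaling and 1.03 when libraries were scaled by their totals, and that of the 9 genes was -0.22 under TMM. No subunit gene passed when any of the 4 libraries was left out, when 281 to 1716 genes of the table passed. In a fit without Skp1acont replicate 2, which this comparison does not use, 5 of the 9 passed beside 67.9% of genes: Rnf2, Bmi1 and Pcgf1 lower, Ring1 and Pcgf2 higher.

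Among the catalytic genes, Rnf2 (ENSMUSG00000026484.13) had 76.0 and 89.9 CPM in Skp1aKO, 63.3 and 19.3 in Skp1acont and 65.2 in Skp1acont PI. The wt libraries had 169 and 189 CPM at 9.0 dpc, 200.4 and 214 at 9.5 dpc and 206 and 227 in wt PI. All 5 Skp1a-labelled libraries were lower than all 6 wt libraries, as were 21.3% of genes under TMM scaling. Under library totals the labels overlapped over all stages, at 27.6 to 135 against 122 to 188 CPM without TMM factors, and stayed apart at 9.5 dpc. The log2 fold change against wt was -1.32 ± 0.49 in Skp1aKO (adjusted p = 0.0583) and -2.32 ± 0.51 in Skp1acont (adjusted p = 0.0127). The Skp1aKO value was -1.18 in the fit without Skp1acont replicate 2, in which it passed. The Skp1acont value was -1.59 (adjusted p = 1.52e-05) without its replicate 2 and -3.38 (adjusted p = 1.51e-09) without replicate 1. The 2 comparisons share their wt libraries. Between Skp1acont PI and wt PI, which share no library with them, it was -1.73 ± 0.65 (adjusted p = 0.150). With library totals in place of TMM the Skp1aKO difference was -0.51 (adjusted p = 0.359), so its size depends on the scaling. Rnf2 lies on chromosome 1 from 151458004 to 151500955 and shares 158 exon bases with Trmt1l on the other strand. Reads from the 2 cannot be told apart there without strand.

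Ring1 (ENSMUSG00000024325.8, chromosome 17, 34020792 to 34024680), the other catalytic gene, had 7.71 and 7.51 CPM in Skp1aKO, 9.31 and 5.74 in Skp1acont and 9.001 in Skp1acont PI. The wt libraries had 7.26 and 6.16 CPM at 9.0 dpc, 6.24 and 4.06 at 9.5 dpc and 3.79 and 3.33 in wt PI. The lowest Skp1a-labelled value, 5.74, lay below the highest wt value, so the labels overlapped under TMM. Under library totals they did not, with 8.19 to 11.7 against 2.77 to 5.24 CPM, as for 37.3% of genes. Its log2 fold change was 0.61 ± 0.37 in Skp1aKO (adjusted p = 0.204), 0.61 ± 0.38 in Skp1acont (adjusted p = 0.204) and 1.35 ± 0.44 in Skp1acont PI (adjusted p = 0.119). In none of the 3 comparisons did it pass under TMM in the fit of all groups. Under library totals it passed in all 3, at 1.40 (adjusted p = 0.0170), 1.32 (adjusted p = 0.0214) and 1.95 (adjusted p = 0.0356). Without Skp1acont replicate 2 in the fit it also passed in all 3, at 0.78 (adjusted p = 0.0296), 1.05 (adjusted p = 0.0214) and 1.47 (adjusted p = 0.00216). Its counts were 19 to 49 in the Skp1a-labelled and 11 to 52 in the wt libraries, which limits precision.

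Bmi1 (ENSMUSG00000026739.13, chromosome 2, 18677018 to 18686629) encodes the PCGF protein of canonical PRC1 known for the upkeep of neural stem cells. It had 27.2 and 37.5 CPM in Skp1aKO, 49.8 and 5.74 in Skp1acont and 41.9 in Skp1acont PI. The wt libraries had 104 and 109 CPM at 9.0 dpc, 211 and 198 at 9.5 dpc and 123 and 115 in wt PI. Every Skp1a-labelled library was lower than every wt library under TMM and also under library totals, which held for 21.3% and 7.79% of genes. The log2 fold change was -2.66 ± 0.73 in Skp1aKO (fold 0.159, adjusted p = 0.0225) and -2.86 ± 0.73 in Skp1acont (fold 0.138, adjusted p = 0.0190). Against wt PI, Skp1acont PI gave -1.51 ± 0.90 (adjusted p = 0.311), and -1.37 (adjusted p = 5.39e-05) without Skp1acont replicate 2 in the fit. Skp1acont replicate 2, with 19 counts, was the lowest library, and without it the Skp1acont difference was -1.91 (adjusted p = 1.58e-06).

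Pcgf2 (ENSMUSG00000018537.16, chromosome 11, 97688823 to 97700497), its paralog, went the other way. It had 11.99 and 15.7 CPM in Skp1aKO, 9.69 and 11.5 in Skp1acont and 14.1 in Skp1acont PI. In wt it had 15.2 and 5.69 CPM at 9.0 dpc, 5.51 and 3.52 at 9.5 dpc and 4.14 and 4.73 in wt PI. At 9.5 dpc all 5 Skp1a-labelled libraries were higher than all 4 wt libraries, as were 24.7% of genes, but lot 1 of wt at 9.0 dpc was as high as Skp1aKO. The log2 fold change was 1.67 ± 0.47 in Skp1aKO (fold 3.18, adjusted p = 0.0250), 1.28 ± 0.48 in Skp1acont (adjusted p = 0.0579) and 1.64 ± 0.53 in Skp1acont PI (adjusted p = 0.117). The Skp1acont value was 1.31 (adjusted p = 0.0400) without its replicate 2. Under library totals the Skp1aKO value was 2.48 (adjusted p = 0.00632).

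Pcgf1 (ENSMUSG00000069678.10, chromosome 6, 83077869 to 83080855) encodes the PCGF protein of the variant complex with KDM2B. Its values were 3.42 and 3.09 CPM in Skp1aKO, 13.9 and 3.02 in Skp1acont and 4.89 in Skp1acont PI. In wt they were 18.3 and 20.1 CPM at 9.0 dpc, 12.5 and 16.2 at 9.5 dpc and 23.1 and 20.9 in wt PI. Skp1acont replicate 1 lay within the wt range and the other 4 Skp1a-labelled libraries lay below it. The log2 fold change was -2.15 ± 0.55 in Skp1aKO (fold 0.226, adjusted p = 0.0189), -0.73 ± 0.51 in Skp1acont (adjusted p = 0.256) and -2.16 ± 0.68 in Skp1acont PI (adjusted p = 0.113). The Skp1acont value rests on which library is kept, at 0.03 (adjusted p = 0.940) without replicate 2 and -2.24 (adjusted p = 3.54e-05) without replicate 1. Under library totals the Skp1aKO value was -1.35 (adjusted p = 0.0551). Kdm2b, its partner gene, did not pass in any of these comparisons.

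Kdm2b (ENSMUSG00000029475.17, chromosome 5, 122870665 to 122989823) had 20.5 and 27.4 CPM in Skp1aKO, 34.6 and 24.5 in Skp1acont and 32.7 in Skp1acont PI. The wt libraries had 42.9 and 43.1 CPM at 9.0 dpc, 24.2 and 33.3 at 9.5 dpc and 46.9 and 48.0 in wt PI. The Skp1a-labelled values overlapped those of wt at 9.5 dpc and lay below those of wt PI and of wt at 9.0 dpc. The log2 fold change was -0.27 ± 0.30 in Skp1aKO (adjusted p = 0.460), 0.03 ± 0.29 in Skp1acont (adjusted p = 0.934) and -0.54 ± 0.36 in Skp1acont PI (adjusted p = 0.363). Under library totals the values were 0.54, 0.75 and 0.06, so the direction in Skp1aKO and Skp1acont PI flips with the scaling. The gene shares 826 exon bases with genes on the other strand, of which 627 belong to Rnf34 and 199 to A930024E05Rik, and 124 with Gm44574 on its own strand.

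The CBX genes, whose proteins bring canonical PRC1 to methylated chromatin, did not pass in any of the 3 comparisons with wt. This holds for the fit of all groups under TMM. Cbx2 (ENSMUSG00000025577.7, chromosome 11, 119022962 to 119031270) had 19.0 and 23.0 CPM in Skp1aKO, 40.9 and 9.96 in Skp1acont, 39.7 in Skp1acont PI and 20.6 to 33.9 in wt. Its Skp1a-labelled values lay below, within and above the wt range. The log2 fold change was -0.16 ± 0.50 in Skp1aKO (adjusted p = 0.811), 0.14 ± 0.50 in Skp1acont (adjusted p = 0.832) and 0.31 ± 0.59 in Skp1acont PI (adjusted p = 0.760). In Skp1acont the 2 libraries decide it: the value was 0.91 (adjusted p = 0.00291) without replicate 2 and -1.21 (adjusted p = 0.000398) without replicate 1. Under library totals the Skp1aKO value was 0.65.

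Cbx7 (ENSMUSG00000053411.16, chromosome 15, 79915807 to 79971119) and Cbx8 (ENSMUSG00000025578.9, chromosome 11, 119036305 to 119040969) were near the limit of these libraries. Cbx7 had 10 to 20 counts in the Skp1a-labelled and 3 to 17 in the wt libraries, or 2.15 to 6.04 against 1.03 to 2.42 CPM. Cbx8 had 4 to 14 and 7 to 24 counts, or 1.10 to 2.997 against 1.76 to 3.30 CPM. For scale, 3 counts, the limit that a count of 0 allows, equal 0.258 to 1.29 CPM by library before TMM scaling, for counting error only. At 9.5 dpc every Skp1a-labelled library had more Cbx7 CPM than any wt library, as for 24.7% of genes. In all 5 Skp1a-labelled libraries, however, Cbx7 lay under the background rate of its library, at 0.26 to 0.85 times that rate. Skp1acont replicate 2, with the most Cbx7 CPM, also had the highest background. The log2 fold change of Cbx7 was 0.74 ± 0.56 in Skp1aKO (adjusted p = 0.297), 1.31 ± 0.56 in Skp1acont (adjusted p = 0.0851) and 0.49 ± 0.69 in Skp1acont PI (adjusted p = 0.667). Cbx7 shares 100 exon bases with Apobec3 on the other strand. Cbx8 differed by -0.22 ± 0.62 in Skp1aKO (adjusted p = 0.777), -0.69 ± 0.64 in Skp1acont (adjusted p = 0.392) and -0.22 ± 0.73 in Skp1acont PI (adjusted p = 0.869). Under library totals these were 0.52, 0.01 and 0.37, so the direction flips with the scaling. None of the Cbx7 and Cbx8 differences passed under TMM in the fit of all groups. Under library totals edgeR called Cbx7 higher in Skp1acont, at 2.06 (adjusted p = 0.0221).

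**Figure D2:**
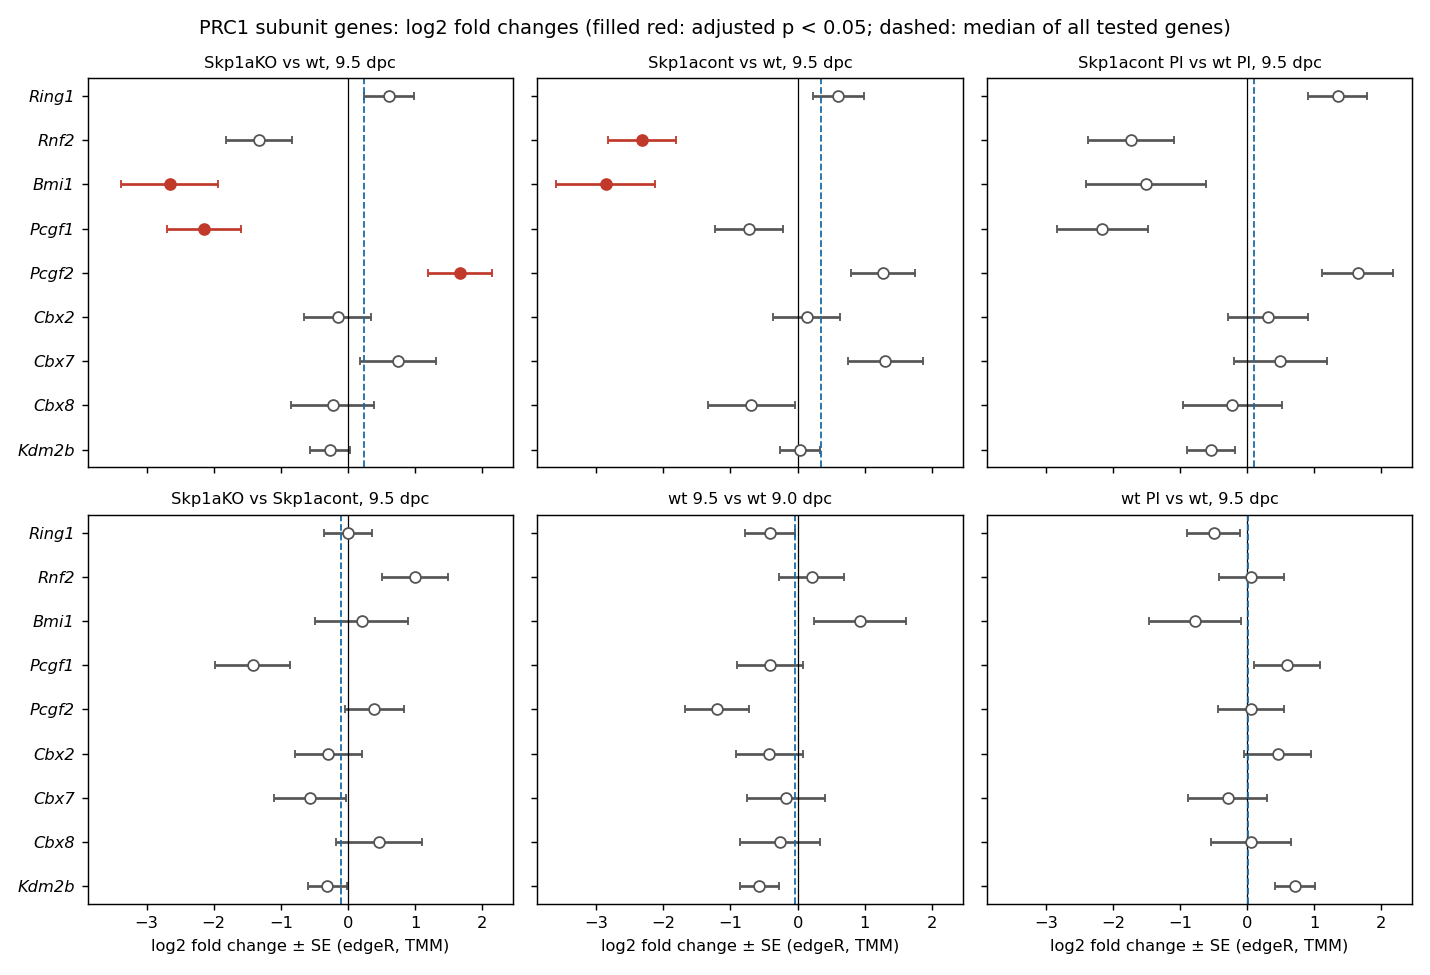
Log2 fold change ± SE (x axis, edgeR, TMM) of the 9 genes in 6 comparisons. Filled red points have an adjusted p under 0.05, and dashed lines mark the median of all 18837 genes. In Skp1aKO against wt, Bmi1 and Pcgf1 lie to the left and Pcgf2 to the right with filled points, and the lower row has none.

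Skp1acont against wt at 9.5 dpc called Rnf2 and Bmi1, both lower, which is 2 of 9 beside 36.4% of genes. The members' share is not above that background. With library totals in place of TMM, 5 of the 9 passed, as Ring1, Pcgf2 and Cbx7 were then called higher, beside 44.1% of genes. Without Skp1acont replicate 2 also 5 passed, beside 39.1% of genes: Ring1, Pcgf2 and Cbx2 higher, Rnf2 and Bmi1 lower. When either wt library was left out, none passed, with 519 and 13 genes of the table called. Skp1acont PI against wt PI called 0 of the 9 beside 0.441% of genes. At an unadjusted p under 0.05 it held 4 of them, beside 24.6% of genes. The other comparisons with wt also held 4 each, beside 51.1% and 51.6%. In Skp1acont PI, DESeq2 called 2, Rnf2 and Pcgf1, both lower, beside 9.27% of genes. In the fit without Skp1acont replicate 2 it called 5 beside 43.2% of genes: Rnf2, Bmi1 and Pcgf1 lower, Ring1 and Pcgf2 higher.

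The libraries labelled Skp1aKO and Skp1acont were compared directly, and edgeR called 0 of the 9 genes beside 0.0% of all genes. Before adjustment 1308 genes of the table were under 0.05, and DESeq2 called 96, none of them a subunit gene. Pcgf1 was the member under an unadjusted p of 0.05, with a log2 fold change of -1.42 ± 0.56 (unadjusted p = 0.0299, adjusted p = 0.632). Its value was -2.06 (adjusted p = 4.19e-05) without Skp1acont replicate 2 and 0.09 (adjusted p = 0.909) without replicate 1, so it rests on which Skp1acont library is kept. Rnf2 differed by 1.00 ± 0.49 (adjusted p = 0.772) and Bmi1 by 0.20 ± 0.69 (adjusted p = 1). Without replicate 2 the 3 genes called were Pcgf1, Cbx2 and Bmi1, all lower in Skp1aKO, beside 27.3% of genes. Without replicate 1, Bmi1 was higher in Skp1aKO by 2.47, Rnf2 by 2.08 and Cbx2 by 1.05. That leaves Skp1acont replicate 2 alone, in which Bmi1 was 0.63, Cbx2 1.02 and Rnf2 2.04 times the background rate.

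The balance within paralog pairs does not depend on how libraries are scaled, since both genes are read in the same library. The log2 ratio of counts per kb of exon, with 0.5 added to each count, was compared between the 5 Skp1a-labelled and the 4 wt libraries at 9.5 dpc in 4 pairs. The pairs were chosen with earlier results of these data known, so the p-values below are no independent support for a difference. Each side pools libraries of different titles. Ring1 to Rnf2 was -2.94 and -3.21 in Skp1aKO, -2.40 and -1.38 in Skp1acont and -2.49 in Skp1acont PI. It was -4.62 and -5.35 in wt and -5.35 and -5.72 in wt PI at 9.5 dpc, so the groups did not overlap. The same held for 41.4% of all pairs among the 18837 genes tested. The means were -2.49 ± 0.70 (SD, n = 5) and -5.26 ± 0.46 (SD, n = 4). They differed by 2.77 (two-sided exact permutation test over 126 arrangements, p = 0.0159, adjusted over the 4 ratios 0.0317). This call was lost when libraries were permuted within lots. Ring1 gave 9.73% to 27.8% of the pair per kb in the Skp1a-labelled and 1.87% to 3.92% in the wt libraries at 9.5 dpc. The 27.8% is that of Skp1acont replicate 2, where Ring1 was 0.77 times the background rate.

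Bmi1 to Pcgf2 was 1.00 and 1.08 in Skp1aKO, 2.18 and -1.15 in Skp1acont and 1.39 in Skp1acont PI. It was 5.04 and 5.61 in wt and 4.67 and 4.41 in wt PI at 9.5 dpc. The groups did not overlap here either. The 2 of 4 ratios that separated the labels are thus near the 41.4% of all pairs. Skp1acont replicate 2 was the library with more Pcgf2 than Bmi1 per kb. In it Bmi1 was 0.63 times and Pcgf2 1.42 times the background rate, so this reversal cannot be told apart from the background. The means were 0.90 ± 1.24 (SD, n = 5) and 4.93 ± 0.52 (SD, n = 4), a difference of -4.03 (exact permutation p = 0.0159, adjusted 0.0317). This call, too, was lost with permutations within lots. In both pairs 0.0159 is the smallest p this design can give. Without Skp1acont replicate 2 the differences were 2.50 and -3.52. The exact permutation p was then 0.0286 in each, the smallest that the remaining arrangements allow, and 0.0571 when adjusted over the 4 ratios, so both calls were lost. The ratios of wt at 9.0 dpc, which the test did not use, were -4.16 and -4.58 for Ring1 to Rnf2 and 2.59 and 4.08 for Bmi1 to Pcgf2.

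Cbx7 to Cbx2 and Cbx8 to Cbx2 overlapped between the labels. Cbx7 to Cbx2 was -3.39 ± 1.36 (SD, n = 5) and -4.59 ± 0.59 (SD, n = 4), which differ by 1.20 (exact permutation p = 0.143, adjusted 0.190). Cbx8 to Cbx2 differed by -0.27 (exact permutation p = 0.651, adjusted 0.651). Cbx2 and Cbx8 are neighbours on chromosome 11, on opposite strands.

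**Figure D3:**
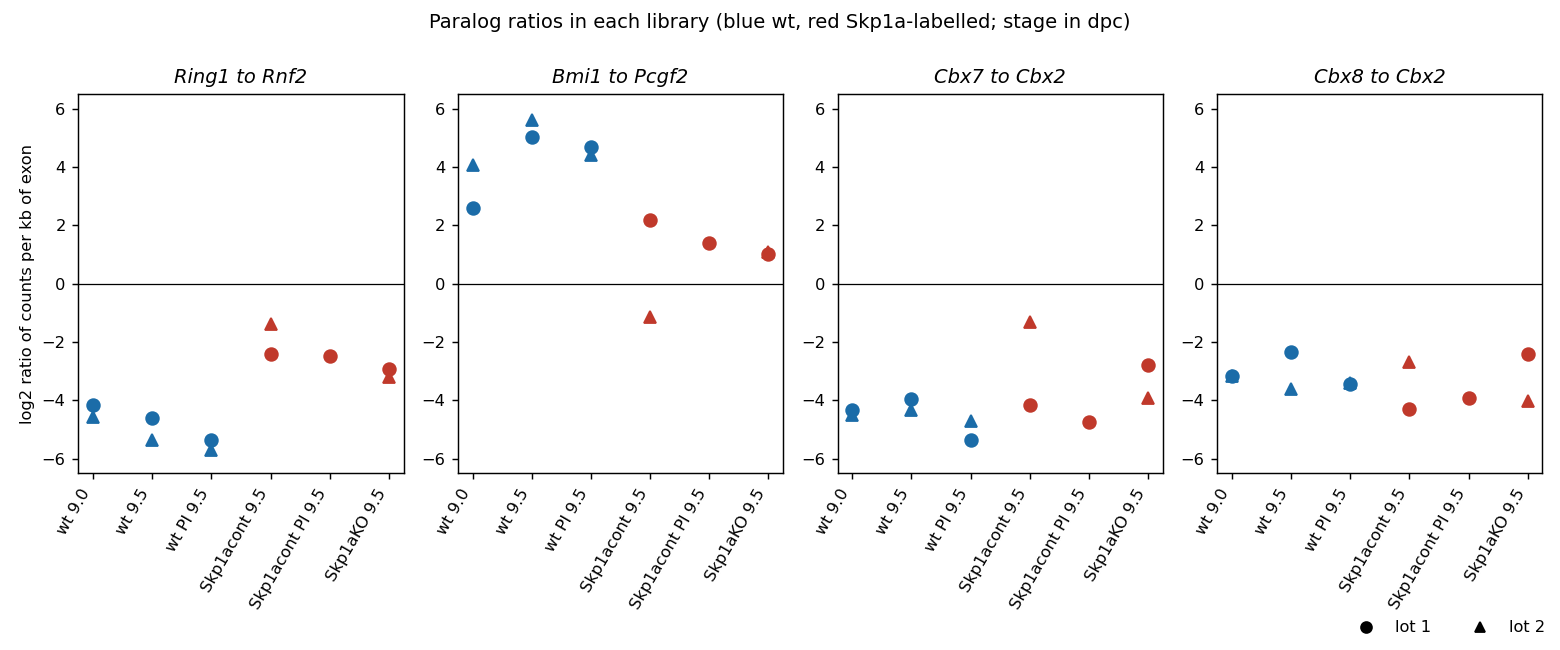
Log2 ratio of counts per kb of exon within 4 pairs of PRC1 genes (y axis) in each library, by group (x axis, stage in dpc). Circles are lot 1, triangles lot 2, blue wt and red Skp1a-labelled, and the line at 0 marks equal counts per kb. In the Ring1 to Rnf2 and Bmi1 to Pcgf2 panels all red points at 9.5 dpc lie nearer to 0 than the blue ones.

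The background rate moved with the label, so each gene was also set against it. The rate was 1.37 and 1.31 CPM per kb in Skp1aKO, 0.62 and 2.30 in Skp1acont, 0.69 in Skp1acont PI and 0.29 to 0.36 in wt, on the TMM scale. Rnf2 was 2.04 to 24.8 times the background of its own library in the Skp1a-labelled and 128 to 181 times in the wt libraries. Bmi1 was 0.63 to 20.3 times against 79.7 to 174 times, and Pcgf1 0.80 to 13.6 times against 23.3 to 43.9 times. Kdm2b was 0.98 to 5.16 times against 6.87 to 13.8 times, and Cbx8 0.14 to 0.85 times against 1.67 to 2.77 times. These 5 genes were lower, relative to the background, in every Skp1a-labelled library than in any wt library, as were 45.4% of genes. Pcgf2 was 1.42 to 5.79 times the background against 3.48 to 13.5 times, and Ring1 0.77 to 4.65 times against 2.84 to 6.99 times. These genes, with more CPM in Skp1aKO than in wt at 9.5 dpc, thus overlapped between the labels relative to the background. Cbx2 was 1.02 to 15.5 times against 14.9 to 24.8 times, and Cbx7 0.26 to 0.85 times against 0.50 to 1.16 times. In Skp1acont replicate 2, Ring1, Bmi1, Pcgf1, Cbx7, Cbx8 and Kdm2b were under the background rate. In that library, values of these genes cannot be told apart from the background. Cbx7 and Cbx8 were under the background rate in all 5 Skp1a-labelled libraries, so the same holds for these 2 genes there. The part of the background in the fold changes and ratios above was not tested.

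**Figure D4:**
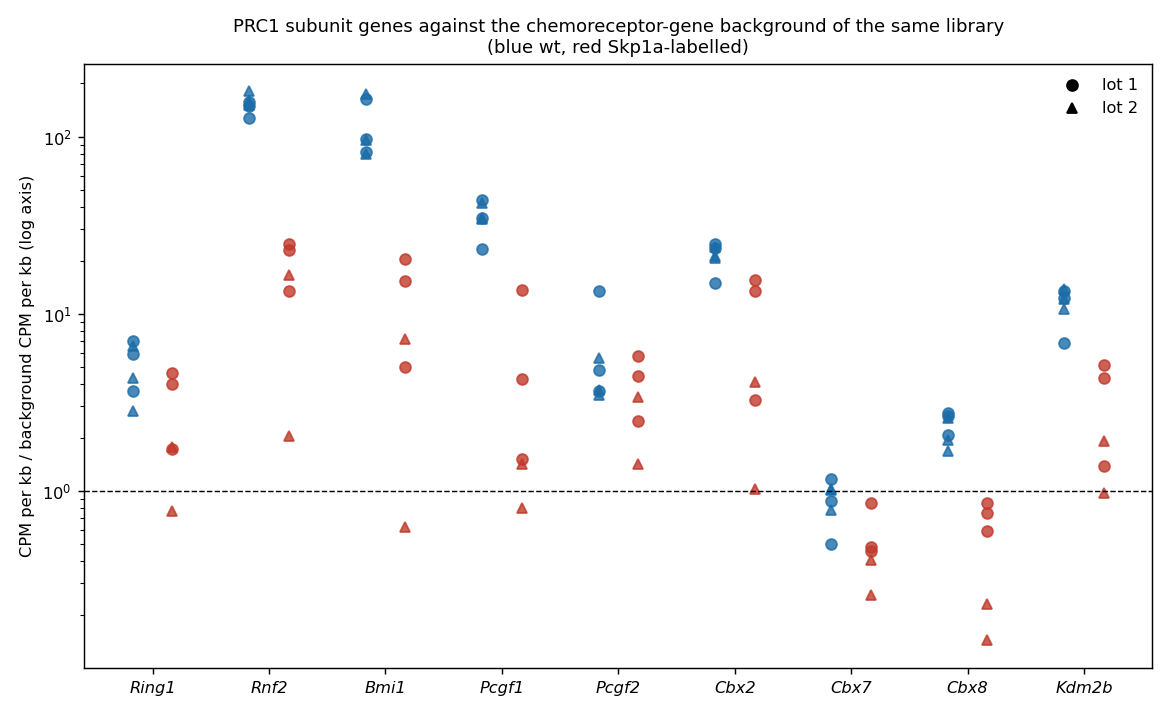
Level of each PRC1 gene per kb of exon divided by the chemoreceptor background rate of the same library (log y axis), 1 point a library. Blue is wt, red Skp1a-labelled, circles lot 1, triangles lot 2, and the dashed line marks a level equal to the background. Rnf2 and Bmi1 are 79.7 to 181 times the background in wt libraries, and Cbx7 lies near or below the line in all 11.

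Within wt, the first question was the step from 9.0 to 9.5 dpc. The fit of all groups called 0 of the 9 genes beside 1.6% of genes, with 1 member, Pcgf2, under an unadjusted p of 0.05, and DESeq2 also called 0 of the 9. Its spread (biological coefficient of variation 35.3%) is raised by Skp1acont replicate 2, without which it was 19.4%. The 6 wt libraries alone gave 19.6%, or 7.19% once the lot was a block. In that paired fit 4 of the 9 were called beside 41.7% of the 13126 genes tested, so the share is near the background. Bmi1 was higher at 9.5 dpc by 0.96 ± 0.09 (adjusted p = 2.05e-07) and Rnf2 by 0.24 ± 0.09 (adjusted p = 0.0332). Kdm2b fell by 0.50 ± 0.12 (adjusted p = 0.00336) and Pcgf2 fell by 1.01 ± 0.33 (adjusted p = 0.0277). Bmi1 had 104 and 109 CPM at 9.0 dpc against 211 and 198 CPM at 9.5 dpc, and it was also called in the fit of the other 10 libraries, at 0.92 (adjusted p = 0.000586), beside 17.7% of genes. The Pcgf2 values at 9.0 dpc, 15.2 and 5.69 CPM, were far apart between lots, and without the block Pcgf2 and Rnf2 were not called in the wt libraries alone. Several marker lists moved along. Neural progenitor markers summed to 599 and 618 CPM at 9.0 dpc and 2572 and 3039 CPM at 9.5 dpc, and neuron markers to 77.5 to 87.2 against 520.1 to 598 CPM. Mesenchyme and crest markers summed to 209 to 231 against 430 to 484 CPM, erythroid markers to 8297 to 8420 against 15546 to 21140 CPM, and surface ectoderm markers to 220.0 to 225 against 25.7 to 36.2 CPM. Their part was not tested.

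The other wt comparison set wt PI against wt at 9.5 dpc. The fit of all groups called 0 of the 9 beside 0.069% of genes. Kdm2b was the member under an unadjusted p of 0.05, and DESeq2 called 0 of the 9. In the wt libraries alone with the lot as a block, 4 of the 9 were called beside 38.9% of genes, so the share is near the background. Without Skp1acont replicate 2 in the fit of all groups, Bmi1 and Kdm2b were called, beside 13.9% of genes. In the paired fit Bmi1 fell by 0.79 ± 0.09 (adjusted p = 2.42e-06), from 211 and 198 CPM to 123 and 115 CPM. Kdm2b was higher by 0.66 ± 0.12 (adjusted p = 0.000275), with 46.9 and 48.0 CPM in wt PI against 24.2 and 33.3 CPM. Pcgf1 was higher by 0.52 ± 0.15 (adjusted p = 0.0124) and Cbx2 by 0.41 ± 0.14 (adjusted p = 0.0237). All CPM values of Kdm2b, Pcgf1 and Cbx2 in wt PI lay above those in wt at 9.5 dpc, as for 29.2% of genes. The wt PI means of 4 of the 9 genes (Bmi1, Pcgf1, Cbx2 and Kdm2b) lay closer to the means at 9.0 dpc, and those of the other 5 closer to wt at 9.5 dpc, which was not tested. Neural progenitor markers summed to 1124 and 1200 CPM in wt PI, neuron markers to 222 and 226, mesenchyme and crest markers to 293 and 326 and erythroid markers to 7653 and 10062 CPM, all below wt at 9.5 dpc. Surface ectoderm markers summed to 42.3 and 54.1 CPM, above it, and the part of these lists was not tested. This comparison and that of the stages share the wt libraries at 9.5 dpc.

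A further 35 genes of PRC1 and of H2A deubiquitination were read from the same fits: 7 canonical partners, 21 variant partners, 6 deubiquitination genes and Kdm2a, the paralog of Kdm2b. In Skp1aKO against wt, 3 were higher and 7 lower under TMM, beside 17.6% and 18.7% of all genes. Under library totals 14 were higher and 2 lower, beside 36.1% and 7.43%, so the balance of directions turns with the scaling. In the fit without Skp1acont replicate 2, 12 were higher and 12 lower, beside 67.9% called in either direction. E2f6, a repressor of the PCGF6 complex, changed by -1.91 ± 0.29 (adjusted p = 0.00406), and Yaf2, whose protein binds the catalytic subunit in variant complexes, by -1.88 ± 0.42 (adjusted p = 0.0124). Usp16, a deubiquitinase of H2A, changed by -1.40 ± 0.31 (adjusted p = 0.0122) and Tfdp1, an E2F partner, by -1.38 ± 0.49 (adjusted p = 0.0499). The genes called higher were Bcorl1, a scaffold of the PCGF1 complex, at 2.40 ± 0.38 (adjusted p = 0.00449), Max at 1.21 ± 0.40 (adjusted p = 0.0395) and Kdm2a at 1.07 ± 0.28 (adjusted p = 0.0208). The list's median was -0.26 against 0.24 for all genes. Of the genes called lower, E2f6 and Yaf2 also passed under library totals. Of the 21 variant partners, 2 were called higher and 4 lower under TMM, 8 and 2 under library totals, and 7 and 7 without Skp1acont replicate 2. When any of the 4 libraries compared was left out, 0 to 3 of the 35 were called.

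In Skp1acont against wt 3 of the 35 were higher and 7 lower, beside 19.3% and 17.1% of genes, from the same wt libraries. Under library totals 10 were higher and 2 lower, beside 37.5% and 6.62%. The list's median was -0.27 against 0.34 for all genes. It was 0.08 without Skp1acont replicate 2 and -0.74 without replicate 1, against 0.19 and 0.21 for all genes. When either wt library was left out, none was called. Yaf2 stood at -2.05 ± 0.43 (adjusted p = 0.0109), Scml2 at -1.65 ± 0.34 (adjusted p = 0.0105), Tfdp1 at -1.64 ± 0.49 (adjusted p = 0.0307) and Bcor, the paralog of Bcorl1, at -1.43 ± 0.26 (adjusted p = 0.00836). Bcorl1 at 1.83 ± 0.39 (adjusted p = 0.0117), Scmh1 at 1.35 ± 0.34 (adjusted p = 0.0177) and Fbrsl1 at 0.86 ± 0.25 (adjusted p = 0.0293) were higher. Scml2, a canonical partner, was also the gene of the 35 called between Skp1acont PI and wt PI, at -2.72 ± 0.46 (adjusted p = 0.0463). It was not called there when either wt PI library was left out. Without Skp1acont replicate 2 in the fit, that comparison called 18 of the 35, 6 higher and 12 lower, beside 43.2% of genes. In the other 3 comparisons the edgeR fit of all groups called 0 of the 35. Without Skp1acont replicate 2 it called 8 between Skp1aKO and Skp1acont, 7 in the step from 9.0 to 9.5 dpc and 5 between wt PI and wt, beside 27.3%, 17.7% and 13.9% of genes. Without Skp1acont replicate 1, the median log2 fold change of the 35 in Skp1aKO against Skp1acont was 0.51, against -0.08 for all genes. In the wt libraries alone with the lot as a block, 20 were called in the step and 15 in wt PI against wt, beside 41.7% and 38.9% of genes.

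Likeness of pattern was measured over the 11 libraries as the root-mean-square difference of log2 CPM after centring each gene on its mean, among 9201 genes with enough counts. It is a description over libraries that share scaling and background. A flat profile would lie at the gene's own spread about its mean, which was 0.40 for Kdm2b, 0.43 for Cbx8, 0.45 for Ring1 and 0.55 to 1.42 for the other 6. Rnf2 was most like Gnai3, at 0.12, and its nearest subunit gene was Bmi1, at 0.52. Bmi1 was most like Serf1, at 0.26, and Pcgf1 most like Idh3b, at 0.22. Pcgf2 was most like Arhgap39, at 0.24, and its nearest subunit gene was Ring1, at 0.46. Ring1 was most like Supt5, at 0.18. Cbx2 was most like Tufm, at 0.14, and Kdm2b most like Usp10, at 0.15, and each was the other's nearest subunit gene, at 0.40, which for Kdm2b is no nearer than a flat profile. Cbx7 was most like Pigb, at 0.24, and Cbx8 most like Hltf, at 0.25. Ring1 and Cbx8, at 0.46 and 0.51 from their nearest subunit genes, were likewise no nearer to them than to a flat profile. Each of the 9 had a gene outside PRC1 that was nearer than any subunit gene. With 9201 candidate genes against the few other subunit genes, this was nearly given in advance. It cannot show whether the subunit genes move together.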

How the data were processed

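RNA was extracted with a Qiagen RNeasy kit and selected with the NEBNext poly(A) module, per the labels' protocols. The authors deposited whole-number read counts per gene for 11 libraries, with no normalization. The submitters' processing notes name Trim Galore 0.6.7 and the build GRCm38. Which aligner, counter and strand setting were used is not given in the sources used here.

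The 9 genes, the paralog pairs and the gene lists were chosen with earlier results of these data known. The test was that of edgeR 4.0.16 (R 4.3.3): filterByExpr by group (18837 genes kept), TMM scaling, a robust quasi-likelihood F test in 1 fit of 6 groups, Benjamini-Hochberg adjustment and calls at an adjusted p under 0.05. Tests are two-sided, log2 fold changes carry standard errors, and a lone library of a group (Skp1acont PI, or where the other is left out) is assumed to vary like the rest. CPM values carry TMM factors. Paralog ratios were compared by a purpose-written exact permutation test, which was checked against that of scipy 1.17.1. The background rate pooled 1898 of 1998 olfactory, vomeronasal and taste receptor genes, without the top 5%, over GENCODE exon lengths for GRCm38. The fits and the permutation test were checked on simulated data. Alternatives were DESeq2 1.42.0, its size factors, library totals, other filters, the lot as a block, the wt libraries alone, another pseudocount, a fit without Skp1acont replicate 2 and leaving out each library. The rule for named genes took the 9 genes and Skp1a in every comparison, up to 4 called genes per direction of the related list, and the gene most like each of the 9.

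Lot numbers were checked as a pairing by the correlation, across genes, of deviations from group means. It was 0.297 to 0.343 between same-lot libraries in the 3 pairs of wt groups, and -0.01 to 0.18 in pairs with a Skp1a group. Lots were therefore treated as pairs among wt libraries only. This rests on the correlation, since no label states it. Lot and depth coincide in wt: lot 1 libraries had 3392251 to 4007663 counts and lot 2 libraries 9217568 to 11607085. The correlation cannot tell a pairing by lot apart from a difference in depth.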

Additional observations from a re-analysis of the deposited data

Results flagged for a closer look

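A library far from the rest of its set was found in 3 of 26 sets of 4 or 5 libraries at 9.5 dpc, 18 of them 1 per gene and label and 8 of them 1 per paralog ratio and label. Chance flags about 1 in 20. Among the 5 Skp1a-labelled libraries, Skp1acont replicate 2 was far below the others with 19.3 CPM of Rnf2 and 5.74 CPM of Bmi1. That library also had the highest background rate, 15.7 times that of the lowest library. Among the 4 wt libraries, wt PI replicate 1 had 1.03 CPM of Cbx7, far below the others, from 3 counts.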

How the results depend on the processing

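Depth limits Cbx7 and Cbx8, with 3 to 24 counts per library. In Skp1aKO against wt, 3 of the 9 genes were called, 5 in the fit without Skp1acont replicate 2, and 0 whichever library of either group was left out. In Skp1acont against wt, 2 were called, 5 with library totals and 0 to 5 when leaving out a library. In Skp1acont PI against wt PI, 0 were called beside 0.441% of genes, and 2 with DESeq2 beside 9.27%. With library totals 2 were called, when 1023 of the 18837 genes were called higher and 128 lower. Without Skp1acont replicate 2 in the fit 5 were called, beside 43.2% of genes. In Skp1aKO against Skp1acont, 0 were called, and 0 to 3 when leaving out a library. In the step from 9.0 to 9.5 dpc, 0 were called beside 1.6% of genes, and 1 without Skp1acont replicate 2 beside 17.7%. In the wt libraries alone with the replicate block 4 were called, beside 41.7%. In wt PI against wt, these counts were 0, 2 and 4, beside 0.069%, 13.9% and 38.9% of genes. The lot as a replicate block in the fit of all groups changed no count. It left 3 called in Skp1aKO and 2 in Skp1acont against wt, beside 7420 and 7251 of the 18837 genes. No label says that a lot number pairs libraries across these groups. Without the block 36.4% of genes were called in each of the 2 comparisons. The share was 67.9% in Skp1aKO without Skp1acont replicate 2 and 44.1% in Skp1acont with library totals. Counts with a library left out rose and fell with the calls over all genes.

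Cbx2 in Skp1acont against wt was -1.21 without Skp1acont replicate 1 and 0.91 without replicate 2. In Skp1aKO against Skp1acont, Cbx2 was 1.05 and -0.94, and Bmi1 was 2.47 and -0.61, in the same order. The share of called genes that were higher moved with scaling: in Skp1aKO against wt 48.5% of called genes were higher under TMM and 82.9% under library totals, in Skp1acont against wt 53.0% and 85.003%, and in Skp1acont PI against wt PI 25.3% and 88.9%. All genes called in Skp1acont PI against wt PI numbered 83, and 7347 without Skp1acont replicate 2.

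Permuting within lots (replicate block) left the ratio differences at 2.77 for Ring1 to Rnf2 and -4.03 for Bmi1 to Pcgf2, with an adjusted p of 0.0667 each in the exact permutation test. Leaving out a library gave 2.50 to 2.99 and -4.35 to -3.52, with adjusted p from 0.0571 to 0.0714. The unadjusted p, 0.0333 in the block and 0.0286 to 0.0357 without a library, is the smallest each set of arrangements allows, and the adjusted p also depends on the CBX ratios. With 2 added to each count the ratios kept direction and call.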
